A study of Mus musculus with 12 samples.

Results

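The uncoupling proteins Ucp1, Ucp2 and Ucp3 are 3 of the 23420 genes counted in RNA-seq libraries of inguinal white adipose tissue (iWAT), and were taken by their gene symbols. All 3 passed edgeR's filter on low counts, which left 15306 genes. Libraries came from male C57BL/6 mice, 10 weeks old, and each of the 4 groups held 3 of them. WT mice carried loxP-flanked (floxed) Hif2a alleles and no Cre, and HIF2α AKO mice carried the same alleles together with Adiponectin-Cre, which is expressed in adipocytes. Each genotype was kept at thermoneutrality (TN), 30 °C, for 1 week or was exposed to cold, 4 to 6 °C, for 3 days. Temperature and length of exposure thus differed together and cannot be told apart. Per the study's methods, mice were otherwise housed at a temperature between these, and no group here stayed at it. A rise or fall upon cold below is therefore a difference between cold and TN mice, not a change over time. Because every mouse with Cre also carried the floxed alleles, the presence of Cre and the loss of HIF2α cannot be told apart. The study asked how HIF2α in adipocytes bears on heat production upon cold.

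Uncoupling proteins are carriers of the SLC25 family in the inner mitochondrial membrane. UCP1 lets protons return to the matrix without making ATP, so that respiration yields heat, and its mRNA is a hallmark of brown adipocytes and of the beige adipocytes that form in iWAT upon cold. UCP2 is found in many tissues and is abundant in cells of the immune system, whereas UCP3 is known mainly from skeletal muscle and brown fat. The functions of UCP2 and UCP3 are less settled than that of UCP1, and neither is counted among the main sources of heat in fat.

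On the mouse assembly GRCm38, Ucp1 lay on the plus strand of chromosome 8 from 83290352 to 83298452 and had 6 exons. Ucp3, from 100472990 to 100486432 with 7 exons, and Ucp2, from 100493337 to 100502020 with 8 exons, lay on the plus strand of chromosome 7, with 6904 bases between the end of Ucp3 and the start of Ucp2. The annotated span of Ucp2 shared 305 bases with Dnajb13 on the opposite strand. The counting mode for strand was not given in the sources used here, and without it reads from both genes in this stretch cannot be told apart. The mean level of Dnajb13 was between 3.47 and 3.77 CPM (TMM-scaled counts relative to library size) in the 4 groups. The sequences before the start of each gene are shown because the members responded unequally to cold and because HIF2α is a DNA-binding factor. They are RefSeq sequences of GRCm38.p6 on the plus strand, from 250 to 26 bases before the start used for each window. That start is not the GENCODE gene start given above. The windows lie at chr8:83290098-83290322 for Ucp1, chr7:100493108-100493332 for Ucp2 and chr7:100472741-100472965 for Ucp3. Capitals mark every match, on either strand, to ACGTG or GCGTG (forms of the core bound by HIF), to TGACG (the core of a cAMP response element) and to AGGTCA (the hexamer bound by many nuclear receptors).
Ucp1: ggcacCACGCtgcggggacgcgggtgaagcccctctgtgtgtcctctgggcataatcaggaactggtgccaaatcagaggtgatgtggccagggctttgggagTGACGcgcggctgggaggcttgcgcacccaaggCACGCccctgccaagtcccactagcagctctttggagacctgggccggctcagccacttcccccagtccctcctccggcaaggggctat
Ucp2: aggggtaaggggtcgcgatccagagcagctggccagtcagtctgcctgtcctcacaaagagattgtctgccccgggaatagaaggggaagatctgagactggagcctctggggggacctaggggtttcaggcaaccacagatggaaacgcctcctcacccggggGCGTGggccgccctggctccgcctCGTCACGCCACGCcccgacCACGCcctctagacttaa
Ucp3: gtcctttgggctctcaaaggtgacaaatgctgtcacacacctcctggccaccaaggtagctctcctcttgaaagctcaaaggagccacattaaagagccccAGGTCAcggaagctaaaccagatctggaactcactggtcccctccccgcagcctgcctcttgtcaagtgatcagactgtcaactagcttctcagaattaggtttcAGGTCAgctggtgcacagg

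The window of Ucp1 held 2 GCGTG matches and 1 TGACG match. That of Ucp2 held 4 GCGTG matches and 1 TGACG match, which overlaps a GCGTG match on the same strand. Ucp3 had 2 AGGTCA matches and 0 of the other motifs. ACGTG was in none of the 3 windows. Among 32851 RefSeq promoter windows of the same length, 25.5% held GCGTG, 14.8% held ACGTG, 35.3% held either of them, 15.3% held TGACG and 12.8% held AGGTCA. The windows of Ucp1 and Ucp2, with 65.3% and 63.6% G and C, lay above the median of 52% over all windows, and that of Ucp3 had 52.9%. Ucp1 and Ucp2 thus shared GCGTG and TGACG, and Ucp3 shared none of the searched motifs with either. A match describes the letters of the window and does not show a binding site.

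The targeted gene and the tissue were checked first. Epas1, which encodes HIF2α, had mean levels of 360 CPM in TN WT, 348 in TN libraries labelled HIF2α AKO, 627 in cold WT and 826 in cold libraries labelled HIF2α AKO, with log2 fold changes by genotype of -0.05 at TN and 0.40 in cold, neither of them called. The TN libraries of the labelled genotypes overlapped. In cold, all libraries labelled HIF2α AKO lay above all WT libraries, as was the case for 3.8% of the tested genes. The unadjusted p of Epas1 was 0.0694 from edgeR, and its whole-gene counts thus ran higher under the label there. The study itself reported lower Hif2a mRNA in adipose tissue of its knockout mice. Genotypes are therefore given as labelled. Counts over the whole gene do not resolve the floxed part, and bulk tissue also holds cells other than adipocytes, so these counts cannot judge the deletion. Each library held between 22368316 and 35204631 counts on genes. The adipocyte marker Adipoq was at 899 CPM or more in every library. A pair of libraries stood apart in 15 skeletal muscle markers, whose summed level was 2151 CPM in TN HIF2α AKO replicate 2 and 1880 in cold HIF2α AKO replicate 1, against 48.8 to 147 in the others. The summed level of 8 epithelial markers was 281 CPM in TN WT replicate 3 and between 3.73 and 12 in the others. In bulk tissue, fewer cells of a type and less RNA per cell cannot be told apart.

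Upon cold, Ucp1 rose from near absence, by 6.24e+03-fold in WT and 2.65e+03-fold in mice labelled HIF2α AKO, Ucp3 rose by 6.54-fold and 6.89-fold, and Ucp2 passed the test in neither genotype. Members were compared in an edgeR quasi-likelihood fit of all 12 libraries, with TMM scaling and p-values adjusted by the Benjamini-Hochberg method over the 15306 genes. In WT, 15.6% of these genes were higher in cold at an adjusted p under 0.05 and 5.68% were lower. In mice labelled HIF2α AKO, the shares were 15.6% and 11.5%. Against these backgrounds, 2 of the 3 members were higher and 0 were lower in each genotype. The median log2 fold change of all tested genes was -0.034 in WT and -0.051 in mice labelled HIF2α AKO.

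In TN WT iWAT, Ucp1 had 8, 13 and 19 counts in the 3 libraries, or 0.204, 0.446 and 0.648 CPM. In cold WT iWAT it had 50008, 82073 and 53975 counts, or 2238, 3506 and 2171 CPM. The groups were far apart. The coefficient of variation was 28.5% in cold and 51.5% at TN, where the few counts add to the spread between mice. The mean was 0.43 ± 0.22 CPM (SD, n = 3) at TN and 2638 ± 752 CPM (SD, n = 3) in cold, where Ucp1 took up 0.245% of all counts on genes. The log2 fold change was 12.6 (standard error 0.82, 95% confidence interval 10.8 to 14.4, adjusted p = 2.78e-05 from edgeR), which made Ucp1 the gene with rank 1 of 15306 by rise. Since the TN level rests on few counts, the size of this fold is far less certain than its direction, and the interval runs from 1.79e+03-fold to 21717-fold.

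In TN libraries labelled HIF2α AKO, Ucp1 had 19, 23 and 109 counts, or 0.740, 0.722 and 3.85 CPM. In cold libraries labelled HIF2α AKO it had 121780, 100633 and 103484 counts, or 5897, 4046 and 4146 CPM. TN replicate 3 stood 5.33-fold above the lowest TN library of its group, so that the TN mean of 1.77 ± 1.80 CPM (SD, n = 3) had an SD as large as itself. The cold mean was 4696 ± 1041 CPM (SD, n = 3), or 0.419% of all counts on genes. The log2 fold change was 11.4 (standard error 0.76, 95% confidence interval 9.69 to 13.1, adjusted p = 2.01e-05 from edgeR), and Ucp1 had rank 2 by rise. Without TN replicate 3 of this group the value was 12.6. At TN, 5 of the 6 libraries of both genotypes had at least 10 counts of Ucp1, so that the gene was low but detected there.

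Ucp3 had 29.8, 9.87 and 41.3 CPM in TN WT and 136, 196 and 199 CPM in cold WT. All cold libraries lay above all TN libraries, and 22.7% of the tested genes were higher in cold WT without overlap. The mean was 27.0 ± 15.9 CPM (SD, n = 3) at TN and 177 ± 35.7 CPM (SD, n = 3) in cold, and the log2 fold change was 2.71 (standard error 0.48, 95% confidence interval 1.65 to 3.77, adjusted p = 0.00389 from edgeR). In libraries labelled HIF2α AKO, Ucp3 had 17.8, 52.2 and 36.8 CPM at TN and 284, 226 and 226 CPM in cold. These groups did not overlap either, as was the case for 24.9% of the tested genes. The mean was 35.6 ± 17.2 CPM (SD, n = 3) at TN and 245.5 ± 33.3 CPM (SD, n = 3) in cold, and the log2 fold change was 2.78 (standard error 0.48, 95% confidence interval 1.72 to 3.84, adjusted p = 0.00266 from edgeR). By size of rise, Ucp3 had rank 101 in WT and rank 111 in mice labelled HIF2α AKO.

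UCP3 is a protein of skeletal muscle, and both libraries that stood apart in muscle mRNA had the most Ucp3 of their group. TN HIF2α AKO replicate 2, with a summed muscle level of 2151 CPM, had 52.2 CPM of Ucp3, and cold HIF2α AKO replicate 1, with 1880 CPM, had 284. The other libraries, at 147 CPM of muscle markers or less, had between 9.87 and 41.3 CPM of Ucp3 at TN and between 136 and 226 in cold, and their TN and cold ranges stayed apart. In TN WT the order was the reverse, since replicate 2 had the most muscle mRNA, 147 CPM, and the least Ucp3, 9.87 CPM. Over the 12 libraries Ucp3 had a Pearson r of 0.095 with the muscle sum, and of 0.38 after group means were subtracted. In cold WT, muscle markers summed to 58.0 to 81.3 CPM, and Ucp3 was at 136 CPM or more. Of the 15 markers, 1, 2 and 1 were at 0 counts in replicates 1, 2 and 3 of that group, and the rest were detected. Without TN HIF2α AKO replicate 2 the cold value in that genotype was 3.17, and without cold HIF2α AKO replicate 1 it was 2.67, with adjusted p of 0.00432 and 0.0111 from edgeR. None of the 15 muscle markers was called in either cold comparison, and their median log2 fold change was -1.9 in WT and -0.15 in mice labelled HIF2α AKO, where it was 4.4 without TN HIF2α AKO replicate 2 and -5.0 without cold HIF2α AKO replicate 1. Markers of other cells moved with Ucp3 more closely. The library with the most Ucp3 also had the highest sum of 10 white adipocyte markers in each of the 4 groups, at 31921 CPM in TN WT, 38733 in TN HIF2α AKO, 62570 in cold WT and 41910 in cold HIF2α AKO. This list, named for white adipocytes, includes Adipoq, Plin1, Fabp4 and Pparg, which other adipocytes also express, so its sum does not measure white identity. Ucp3 had r of 0.81 with this sum, and 0.73 after group means, and r of 0.79 and 0.83 with that of 8 endothelial markers. The part of these markers in the level of Ucp3 was not tested.

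**Figure D1:**
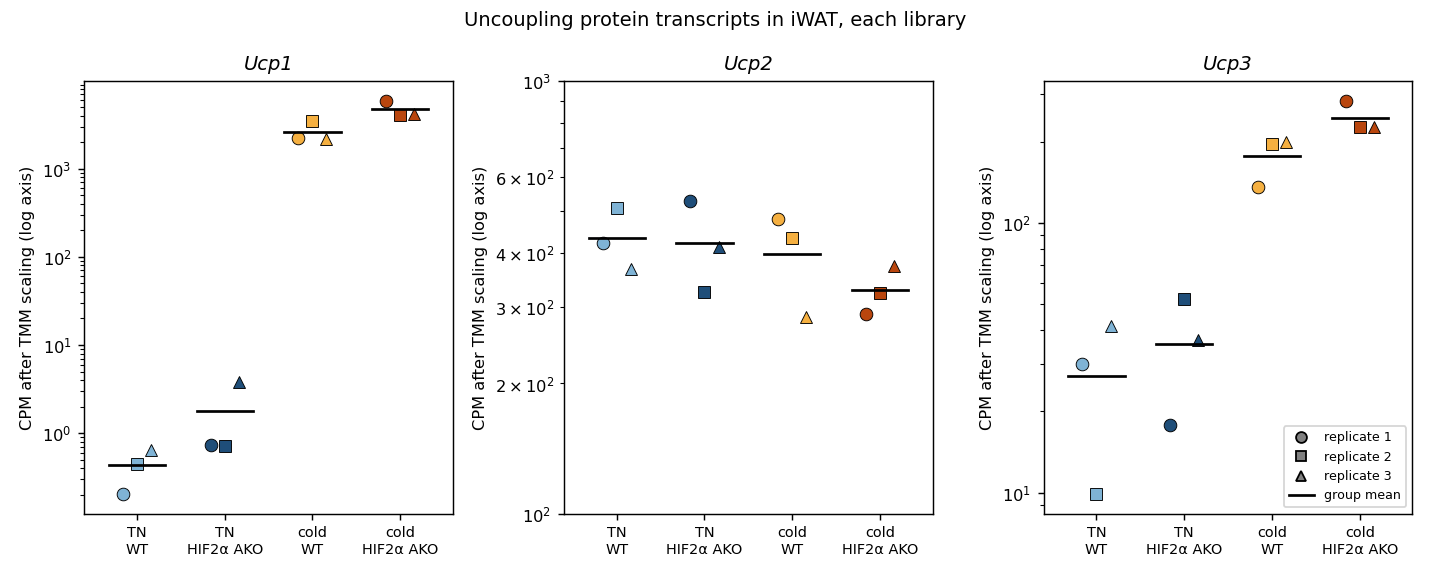
CPM after TMM scaling on log axes for Ucp1, Ucp2 and Ucp3, with 1 point per library (marker by replicate number) and a line at the mean of each group of 3 mice. Ucp1 was at most 3.85 CPM in the TN libraries and at least 2171 CPM in the cold libraries, Ucp3 was separated by temperature on a smaller scale, and the Ucp2 libraries of all 4 groups overlapped.

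Ucp2 had 423, 510 and 368 CPM in TN WT and 480, 433 and 285 CPM in cold WT. In cold, 2 values lay within the TN range and 1 below it, with means of 434 ± 71.5 CPM (SD, n = 3) at TN and 399 ± 101 CPM (SD, n = 3) in cold. The log2 fold change was -0.12 (standard error 0.22, 95% confidence interval -0.61 to 0.37, adjusted p = 0.712 from edgeR), so that a rise of more than 1.3-fold lay outside the interval. In libraries labelled HIF2α AKO, Ucp2 had 528, 325 and 414 CPM at TN and 290, 323 and 373 CPM in cold. The means were 422 ± 101 and 328.5 ± 41.9 CPM (SD, n = 3 each), the groups overlapped, and the log2 fold change was -0.36 (standard error 0.22, 95% confidence interval -0.86 to 0.13, adjusted p = 0.235 from edgeR). At a looser limit, which asks for an unadjusted p under 0.15 and a log2 change of more than 0.2 in size, Ucp2 counted as lower in this comparison, as did 28.9% of the tested genes. Scaling by total counts alone, which moved the median of all genes by -0.3 in WT and -0.27 in mice labelled HIF2α AKO, gave values of -0.41 and -0.64 for Ucp2, and neither passed the limit.

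The level of Ucp2 moved with several sets of cell type markers, those of immune cells among them. Over the 12 libraries, its log2 CPM had a Pearson r of 0.85 with the summed level of 14 macrophage markers and of 0.85 with that of 13 lymphocyte markers, and after each group's mean was subtracted r was 0.86 and 0.94. With 12 cell cycle markers r was 0.75, and 0.66 after group means. It was below 0 with the listed white adipocyte markers, which other adipocytes also express in part, at -0.73 and -0.80. With endothelial markers it was -0.71 and -0.63. These points share libraries and scaling, and the values are descriptions. The macrophage sum ranged from 2867 to 4690 CPM in TN WT, from 3970 to 4586 in TN HIF2α AKO, from 2159 to 3973 in cold WT and from 2282 to 2921 in cold HIF2α AKO. Cold WT replicate 3 and cold HIF2α AKO replicate 1, with the lowest macrophage and lymphocyte sums of their groups, also had the lowest Ucp2 of their groups, at 285 and 290 CPM. In each of the 4 groups the library with the least Ucp2 had the highest white adipocyte sum.

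Among the macrophage markers, 0 of 14 were called in cold WT and 4 were lower in cold HIF2α AKO, with median log2 fold changes of -0.13 and -0.67. The count in cold HIF2α AKO rested on single libraries, being 1 without any one of TN HIF2α AKO replicates 1 and 3, cold HIF2α AKO replicates 1 and 2 and cold WT replicate 2, 2 without TN HIF2α AKO replicate 2, 7 when TN WT replicate 3 was left out and 10 when cold WT replicate 3 was. C1qa, a component of complement, was at -0.85, Mrc1, a mannose receptor, at -0.76 and Ptprc, the leukocyte antigen CD45, at -0.73 in mice labelled HIF2α AKO. The lymphocyte sum was between 1213 and 2009 CPM at TN and between 724 and 1278 in cold, and 3 of its 13 markers were lower in cold WT and 4 in cold HIF2α AKO. In cold WT, 0 were called without TN WT replicate 1, TN WT replicate 2 or cold WT replicate 3, and 1 was called without TN HIF2α AKO replicate 3 or cold WT replicate 1. In cold HIF2α AKO, 0 were called without cold HIF2α AKO replicate 1, 1 and 2 without TN replicates 1 and 3 of this genotype, and 10, 9 and 7 without TN HIF2α AKO replicate 2, cold HIF2α AKO replicate 3 and cold WT replicate 3. Whether the level of Ucp2 within a cell type changed upon cold was not tested. The correlations of Ucp1 with the macrophage and lymphocyte sums after group means were -0.18 and 0.0048, and those of Ucp3 were -0.58 and -0.69. Those of Ucp1 rest in part on TN libraries with 8 to 109 counts of the gene.

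**Figure D2:**
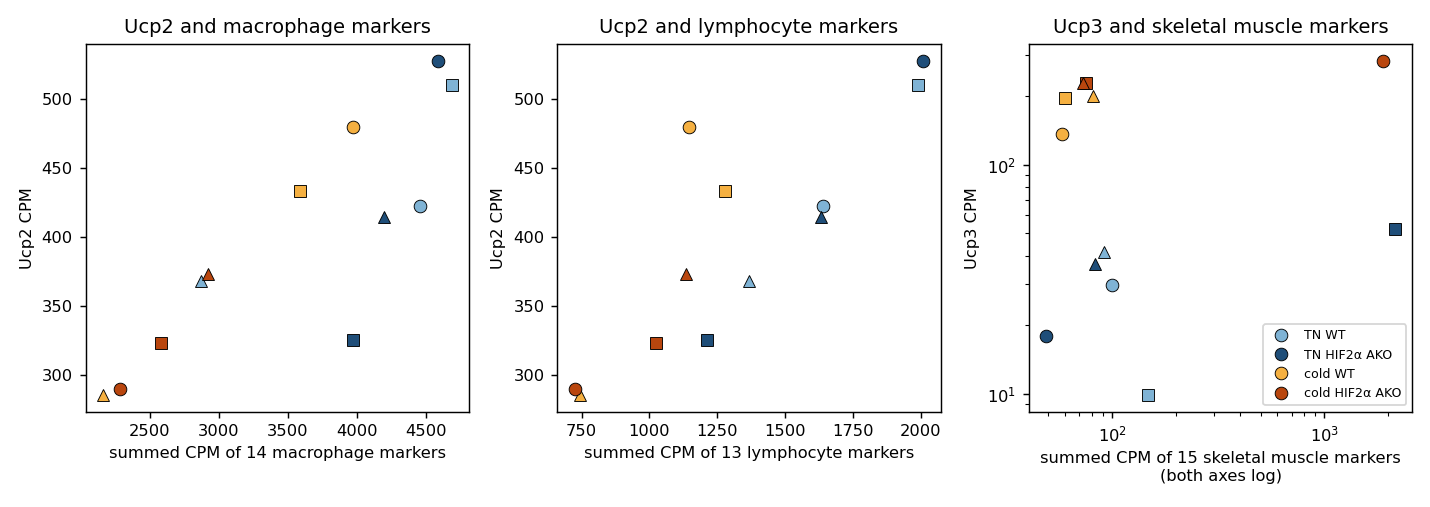
Each point is 1 library, coloured by group, with markers by replicate number as circles, squares and triangles for replicates 1, 2 and 3. Ucp2 CPM is set against the summed CPM of 14 macrophage and of 13 lymphocyte markers, where it ran upward over the libraries of all groups, and Ucp3 CPM against 15 skeletal muscle markers on log axes, where 2 libraries stood apart at 1880 and 2151 CPM.

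The members thus changed unequally, which was tested within libraries, where scaling has no part. The log2 ratio of Ucp1 to Ucp2 counts was -10.9, -10.1 and -9.11 in TN WT and 2.22, 3.02 and 2.93 in cold WT. In libraries labelled HIF2α AKO it was -9.44, -8.78 and -6.74 at TN and 4.35, 3.65 and 3.47 in cold. Over both genotypes, cold minus TN was 12.5 for Ucp1 to Ucp2, 9.30 for Ucp1 to Ucp3 and 3.16 for Ucp3 to Ucp2. Each had p = 0.005 in a two-sided exact permutation test of the temperature labels within genotype (400 arrangements), which is the smallest p that this test can give, and 0.005 after Benjamini-Hochberg adjustment over the 3 ratios. Within 1 genotype, the exact test of 3 mice against 3 cannot go below p = 0.1, and each ratio gave that value.

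Levels of different genes were compared as CPM per kb of exon, with 1636 bases for Ucp1, 1597 for Ucp2 and 2448 for Ucp3. In all 6 TN libraries the order was Ucp2, Ucp3, Ucp1, and in all 6 cold libraries it was Ucp1, Ucp2, Ucp3. At TN, Ucp2 made up 95.7% ± 2.8 (SD, n = 3) of the summed per-kb level of the 3 genes in WT and 93.9% ± 3.7 (SD, n = 3) in libraries labelled HIF2α AKO, and the share of Ucp1 was at most 0.851%. In cold, Ucp1 made up 83.0% ± 3.3 (SD, n = 3) in WT, with a range from 79.4 to 85.9%, and 90.1% ± 2.0 (SD, n = 3) in libraries labelled HIF2α AKO, with a range from 88.6 to 92.4%. The share of Ucp3 had means between 3.18 and 5.68% in the 4 groups. These shares, and the order of Ucp2 and Ucp3 in cold, depended on the length used. With the GENCODE transcript of Ucp2, which ends later and holds 3988 bases, Ucp3 lay above Ucp2 per kb in 3 of the 6 cold libraries, by at most 1.6-fold. With that length the share of Ucp3 was 9.59% ± 6.2 in TN WT, 12.7% ± 7.7 in TN HIF2α AKO, 4.17% ± 1.2 in cold WT and 3.32% ± 0.23 in cold HIF2α AKO (SD, n = 3 each). The share of Ucp2 was then 90.2 and 86.4% at TN and 5.76 and 2.80% in cold, and that of Ucp1 90.1 and 93.9% in cold.

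**Figure D3:**
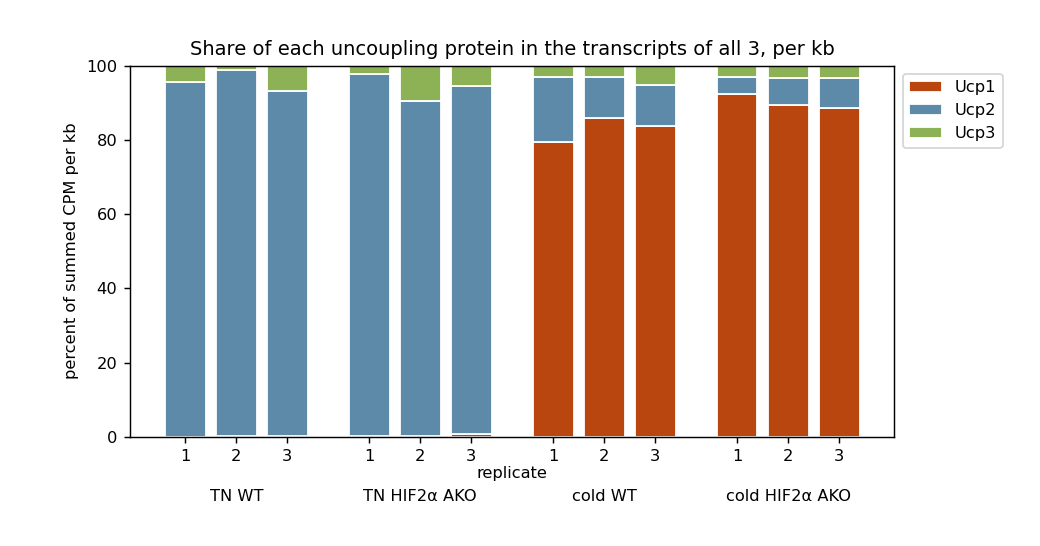
Stacked bars, 1 per library, of the percent that Ucp1, Ucp2 and Ucp3 made up of their summed CPM per kb of exon. Ucp2 filled at least 90.4% of each TN bar, and Ucp1 filled between 79.4 and 92.4% of each cold bar.

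The comparison of genotypes asked whether levels of the uncoupling proteins differed between the labelled genotypes at either temperature. No member passed the adjusted limit in either comparison, against a background of 0.00653% of the 15306 tested genes, or 1 gene, at TN and 0.00653% in cold. Ucp1 and Ucp3 had higher means in libraries labelled HIF2α AKO at both temperatures and Ucp2 had lower ones, and in cold the libraries of the labelled genotypes did not overlap for Ucp1 or for Ucp3. Such a separation upward was shown by 3.8% of the tested genes in cold and by 3.69% at TN.

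In cold, the lowest Ucp1 level under the HIF2α AKO label, 4046 CPM, was above the highest WT level, 3506 CPM. The log2 fold change was 0.83 (standard error 0.49, 95% confidence interval -0.25 to 1.91, unadjusted p = 0.117 and adjusted p = 1 from edgeR), or 1.78-fold with an interval from 0.843-fold to 3.76-fold. For Ucp3 the lowest labelled HIF2α AKO library, at 226 CPM, was above the highest WT library, at 199 CPM, and the log2 fold change was 0.47 (standard error 0.45, 95% confidence interval -0.52 to 1.46, adjusted p = 1). The value of Ucp1 was 0.63, and that of Ucp3 0.36, without cold HIF2α AKO replicate 1, the library with the most Ucp1, the most Ucp3 and the most muscle mRNA of its group. Leaving out each library in turn, Ucp1 ran from 0.63 to 1.13 and Ucp3 from 0.31 to 0.58. In fits of the compared groups only, the unadjusted p of Ucp1 was 0.0234 from edgeR and 0.000727 from DESeq2 (adjusted p = 0.268). For Ucp3, the same fits of edgeR and DESeq2 gave an unadjusted p of 0.0297 and 0.0154. With all 12 libraries, DESeq2 and limma voom gave an unadjusted p of 0.195 and 0.149 for Ucp1 and 0.273 and 0.2 for Ucp3. None of these passed the adjusted limit. Ucp2 was at -0.28 (standard error 0.22, 95% confidence interval -0.78 to 0.21, adjusted p = 1). In this comparison 14 of 14 macrophage markers had values below 0 (median -0.37), as did 12 of 13 lymphocyte (-0.16) and 12 of 12 cell cycle markers (-0.45). So did 6 of 8 epithelial, 5 of 10 white adipocyte, 1 of 8 endothelial and 0 of 15 muscle markers. None of these markers was called, and the median of all tested genes was -0.022.

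At TN, Ucp1 was higher in libraries labelled HIF2α AKO without overlap, the nearest libraries being at 0.722 and 0.648 CPM. The log2 fold change was 2.07 (standard error 0.69, 95% confidence interval 0.55 to 3.59, unadjusted p = 0.012 and adjusted p = 0.999 from edgeR). Its size rested on 1 library, since the value was 0.80 without TN HIF2α AKO replicate 3. With all 12 libraries, DESeq2 gave 2.05 (unadjusted p = 0.00392, adjusted p = 0.919) and limma voom 3.08 (unadjusted p = 0.00101, adjusted p = 0.261). In fits of the compared groups only, the unadjusted p was 0.0392 from edgeR and 0.0114 from DESeq2. Ucp1 was called in none of these fits. At the looser limit, Ucp1 counted as higher under the HIF2α AKO label at TN, as did 3.97% of the tested genes, and in cold, as did 4.74%. Ucp3 was at 0.40 (standard error 0.46, 95% confidence interval -0.61 to 1.4) at TN and Ucp2 at -0.04 (standard error 0.22, 95% confidence interval -0.53 to 0.46), both with an adjusted p of 0.999 from edgeR, and their groups overlapped. Without TN HIF2α AKO replicate 2, rich in muscle mRNA, the value of Ucp3 was 0.02.

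Whether cold changed the members unequally in the labelled genotypes was tested by the interaction of genotype and temperature. It was -1.24 (standard error 0.85, 95% confidence interval -3.10 to 0.63) for Ucp1, -0.24 (standard error 0.32, 95% confidence interval -0.94 to 0.45) for Ucp2 and 0.07 (standard error 0.64, 95% confidence interval -1.33 to 1.48) for Ucp3, each with an adjusted p of 1 from edgeR. Of all tested genes 0% were called in this test, with 327 genes at an unadjusted p under 0.05 and 0 genes called in the 8 other fits, DESeq2 and limma voom among them. For Ucp1 the value followed the TN library noted above and was 0.03 without it. In the 8 other fits the Ucp1 value ran from -2.35 with limma voom (unadjusted p = 0.0173, adjusted p = 0.899) to -1.12 with a replicate block. All 3 intervals spanned 0, and that of Ucp2 was the narrowest.

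**Figure D4:**
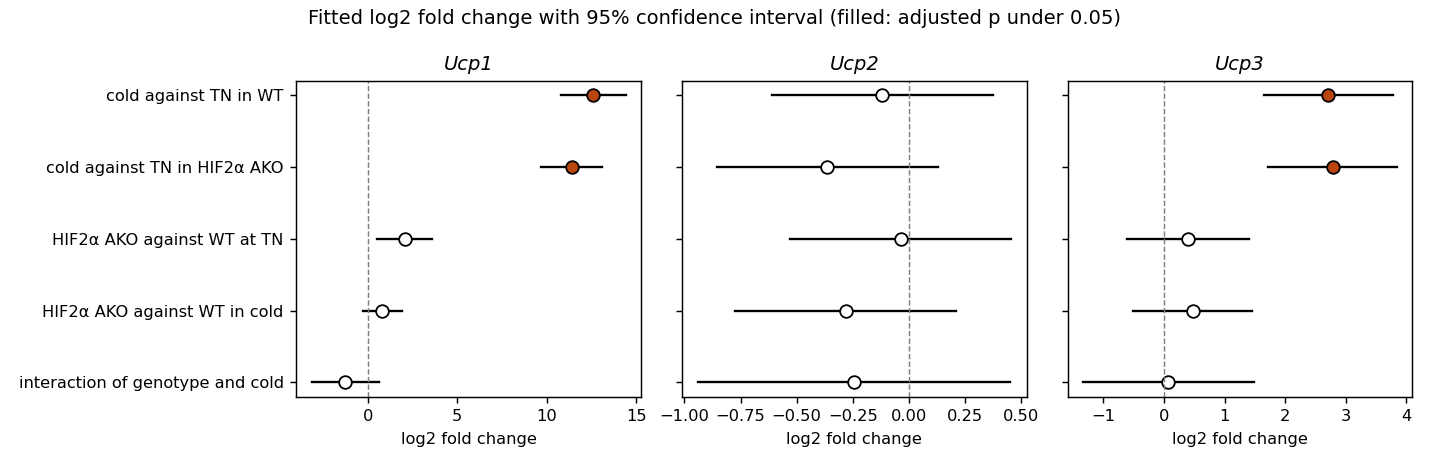
Fitted log2 fold changes of Ucp1, Ucp2 and Ucp3 (points) with 95% confidence intervals (lines) for the 4 comparisons and the interaction, each gene on its own scale, with filled points where the adjusted p was under 0.05. The 4 filled points are Ucp1 and Ucp3 in the cold comparisons, and the intervals of Ucp2 all crossed 0.

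Ordered by mean level, Ucp1 and Ucp3 were lowest in TN WT, followed by TN HIF2α AKO, by cold WT and last by cold HIF2α AKO, and Ucp2 ran the other way, from 434 CPM in TN WT down to 328.5 CPM in cold HIF2α AKO. Between the neighbours TN HIF2α AKO and cold WT, the gap ran from 3.85 to 2171 CPM for Ucp1 and from 52.2 to 136 CPM for Ucp3, whereas the Ucp2 libraries overlapped. The other neighbours are the genotype comparisons, none of which was called. The coefficient of variation was 51.5% and 102% for Ucp1 at TN, 58.9% and 48.3% for Ucp3 at TN, between 13.6 and 28.5% for both genes in cold, and between 12.8 and 25.4% for Ucp2 in the 4 groups.

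Over the 12 libraries Ucp1 and Ucp3 had a Pearson r of 0.93 in log2 CPM, which fell to 0.15 once group means were subtracted. Ucp2 and Ucp3 had r of -0.65, and -0.75 after group means, and Ucp1 and Ucp2 had -0.43 and -0.02. Mice with more Ucp3 than their group thus tended to have less Ucp2, and Ucp1 showed little relation to either within groups. The deviations of Ucp1 at TN rest on 8 to 109 counts per library, which limits what its r values can show. Among 15001 tested genes, the pattern most like Ucp1 over the 12 libraries was that of Fabp3, a fatty acid-binding protein (r = 0.992), followed by Gyk, glycerol kinase (0.988), Dio2, which activates thyroid hormone (0.987), Hpdl (0.987) and Ankrd9 (0.987). Most like Ucp3 were Rbpms2 (0.997), Apoo, a subunit of the mitochondrial MICOS complex (0.992), Plin5, a lipid droplet protein (0.992), Cebpb, a transcription factor (0.992), and Endog, a mitochondrial nuclease (0.991). Ucp2 was most like Pde1b, a phosphodiesterase (0.967), Tvp23a (0.957), Uap1l1 (0.955), Hap1 (0.953) and Clu, clusterin (0.951).

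After group means were subtracted, Rbpms2 (0.977) and Plin5 (0.975) stayed among the 5 genes most like Ucp3, with Klhdc7a (0.976), Rilp (0.970) and Trp53inp2 (0.969). For Ucp2, Tvp23a (0.978) stayed among the 5, behind Arhgap27 (0.984), Crlf3 (0.980), A430078G23Rik (0.979) and Trmt2a (0.979). For Ucp1 they included Nuak1 (0.942), Gm1720 (0.897), Mus81 (0.885) and Rab6b (0.868), none of which was among its 5 over all libraries. This ranking for Ucp1 also rests in part on TN libraries with 8 to 109 counts of it. All these values are over 12 libraries that share scaling and group differences, and they rank genes without a test.

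Genes of the thermogenic program moved with Ucp1 and Ucp3 upon cold. Of 28 listed thermogenic genes other than Ucp1, 27 were tested (Zic1 was too low), and 22 were higher in cold WT and 23 in cold HIF2α AKO, with 0 lower and median log2 fold changes of 2.8 and 3.0. Beside this list and those below, 15.6% of all tested genes were higher in cold in each genotype, and 5.68% and 11.5% were lower. The lists share genes and are not separate evidence. Fabp3 rose by 10.4 on the log2 scale in WT, from 0.319 ± 0.19 to 431 ± 138 CPM (SD, n = 3 each), and by 9.68 in mice labelled HIF2α AKO. Elovl3, an elongase of very long fatty acids, rose by 9.83 and 10.7, and Dio2 rose by 8.38 in WT. Slc27a2, an acyl-CoA synthetase, rose by 7.6 in mice labelled HIF2α AKO. The rise of Ucp1 was above that of every one of these genes in both genotypes, and that of Ucp3 was near the median of the list.

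Of 20 transcription factors and cofactors known to act on Ucp1, 8 were higher and 1 lower in cold WT, and 7 were higher and 1 lower in cold HIF2α AKO, with medians of 0.21 and 0.20. The 8 became 4 without TN WT replicate 1 or 2 and 5 without cold WT replicate 3 or cold HIF2α AKO replicate 2, and none was lower in mice labelled HIF2α AKO without replicate 1 of that genotype at TN or in cold. Ppara, a nuclear receptor for fatty acids, was at 3.33 in WT and 2.98 in mice labelled HIF2α AKO, the coactivator gene Ppargc1a at 2.56 and 2.95, and the nuclear receptor gene Esrrg at 2.37 and 2.58. Ppara, Ppargc1a, Esrrg and Prdm16 are among the genes that are also on the thermogenic list. The gene that was lower was Creb1, which encodes a factor that binds cAMP response elements, at -0.50 and -0.42. It was named after its values were seen. Prdm16, which maintains the thermogenic fate, was higher in mice labelled HIF2α AKO (1.25, adjusted p = 0.00727 from edgeR) and at 0.79 (adjusted p = 0.0519) in WT. The β3-adrenergic receptor gene Adrb3, of the thermogenic list, had values of -0.90 and -0.52 and was not called in either genotype.

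Among 10 other SLC25 carriers, listed for links to proton leak, the same 4 genes were higher in both genotypes and 0 were lower, with medians of 0.47 and 0.49. They were Slc25a20, the carnitine-acylcarnitine carrier (3.02 in WT and 3.20 in mice labelled HIF2α AKO), the adenine nucleotide translocases Slc25a5 (1.10 and 1.18) and Slc25a4 (0.99 and 1.10), and the oxoglutarate carrier Slc25a11 (0.87 and 1.16). The brain uncoupling proteins Slc25a27, at -0.34 and -0.20, and Slc25a14, at -0.19 and -0.11, were not called. Without TN HIF2α AKO replicate 2 or cold WT replicate 3, 1 of the 10 was called lower in mice labelled HIF2α AKO, as was 1 in WT without cold WT replicate 2. The median of the carriers was thus well under the value of Ucp3. Slc25a20 is also on the list for lipolysis and fatty acid supply below.

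Of 11 genes named for heat production without UCP1, 9 were tested and 5 were higher in each genotype, with 0 lower and medians of 0.56 and 0.67. In WT, 2 were higher without TN WT replicate 1 (median 0.22), TN WT replicate 2 (0.27) or cold WT replicate 2 (0.17). There were 3 without cold WT replicate 1, cold WT replicate 3 or cold HIF2α AKO replicate 2, and 1 was lower without TN WT replicate 3. Genes were filtered anew in each such fit, and 10 of the list were tested without TN WT replicate 1. These medians are thus not all over the same 9 genes as 0.56. Ckb, a creatine kinase of the creatine cycle, was at 1.72 and 2.37, and Pm20d1, an enzyme that makes N-acyl amino acids, at 1.43 and 2.38. Atp2a2, the calcium pump SERCA2, was at 0.96 in WT, and Alpl, tissue-nonspecific alkaline phosphatase, at 1.85 in mice labelled HIF2α AKO. Of 23 genes for lipolysis and fatty acid supply, which provide the fuel and the activators of UCP1, 18 were higher in WT and 19 in mice labelled HIF2α AKO, with 0 lower and medians of 2.0 and 1.6. Pdk4, which spares glucose, was at 3.67 and 4.04, Acadl, a long-chain acyl-CoA dehydrogenase, at 2.62 in WT, and Acot1, an acyl-CoA thioesterase, at 3.41 in mice labelled HIF2α AKO. No gene of these lists was called between the labelled genotypes at TN or in cold. The medians in cold HIF2α AKO against cold WT were 0.64 for the thermogenic genes, 0.33 without cold HIF2α AKO replicate 1, and between -0.023 and 0.25 for the other lists, beside -0.022 for all tested genes.

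**Figure D5:**
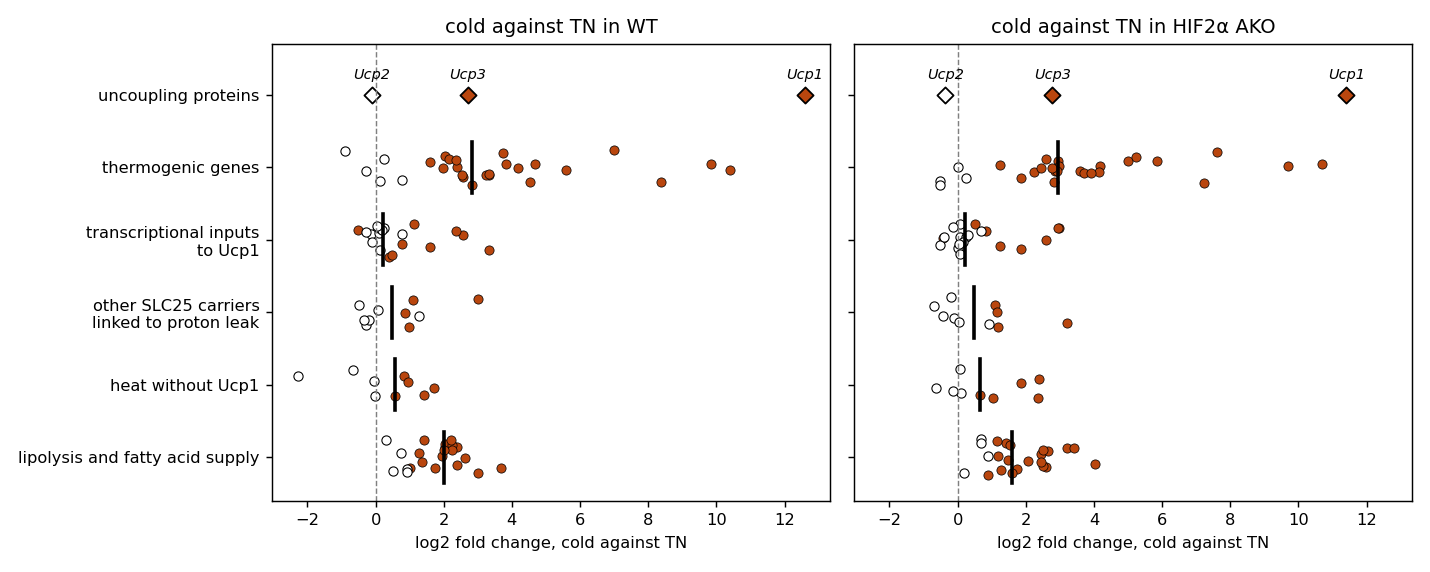
Log2 fold changes of cold against TN in WT and in mice labelled HIF2α AKO for the 3 uncoupling proteins (diamonds) and for the tested genes of 5 related lists (circles, spread vertically at random), filled where the adjusted p was under 0.05, with a bar at the median of each list. Ucp1 lay to the right of all genes shown, Ucp3 near the median of the thermogenic genes, and Ucp2 beside 0.

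No tested neighbour of Ucp1 or of Ucp3 on the chromosome had a log2 fold change upon cold as large as that member, whereas the values of Ucp2 lay within the range of its neighbours. Of the 3 nearest tested genes on each side of Ucp1, only Ndufb7, a subunit of respiratory complex I at a distance of 268 kb, was called upon cold, with log2 fold changes of 1.34 in WT and 1.59 in mice labelled HIF2α AKO. The nearest ones, Tbc1d9 at 17.4 kb and Elmod2 at 14.2 kb, had values of -0.35 and 0.35 in WT and of -0.51 and 0.07 in mice labelled HIF2α AKO. Around Ucp3 and Ucp2, C2cd3, which lies 2.84 kb from Ucp3, was lower upon cold (-0.40 and -0.43), and Ppme1 (0.41 and 0.40) and Mrpl48, of the mitochondrial ribosome (0.63 and 0.80), were higher in both genotypes. Dnajb13, which overlaps the end of Ucp2, was at 0.06 and 0.12 and Coa4 at 0.15 and 0.24, and neither was called. P4ha3, a prolyl hydroxylase of collagen at a distance of 153 kb, was at -0.10 (standard error 0.72) and -0.75 (standard error 0.74) and was not called. None of the 12 neighbours was called between the labelled genotypes.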

How the data were processed

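Deposited read counts per gene of 12 iWAT libraries were used. Per the submitters' processing notes and the study's methods, the authors trimmed reads with Trim Galore 0.4.4, aligned them with STAR 2.6.1d to GRCm38, counted them with HTSeq 0.13.5 and tested them with DESeq2 1.30.0. The annotation and the strand setting of the counting were not given in the sources used here. The counts are whole and not normalized, and the table of the series equalled the per-sample tables for 12 of 12 libraries. Tallies of reads outside genes, 21.9 to 27.0% of the reads listed, were left out.

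Analysis used R 4.3.3 with edgeR 4.0.16 (filterByExpr at its defaults, 10 counts in a group's worth of libraries and 15 in total, TMM, glmQLFit and glmQLFTest, 1 factor of 4 groups, biological coefficient of variation 0.202), limma 3.58.1, DESeq2 1.42.0 and Python 3.11.15. CPM are TMM-scaled, and log2 CPM used a prior count of 2. Ratios used a pseudocount of 0.5. The looser limit, with p under 0.15 before adjustment and a log2 change of more than 0.2 in size, follows the study's methods. At this depth every member was counted in every library, and intervals cover the spread between mice. The labels do not say more of how the mice were drawn, so p-values set each difference against the spread between these samples.

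Members and gene lists were chosen with earlier results of these data known. The text names the members, Epas1, at most 3 called genes per list and comparison with the largest change, the 5 genes most like each member in log2 CPM (mean count of at least 10), and the 3 nearest tested genes on each side. Other names were chosen after values were seen. A gene that met this rule is not reported here. Lists and the 7 sets of markers are described by counts and medians. Endothelial markers had 0 of 8 genes called and cell cycle markers 0 of 12 in both cold comparisons, with up to 2 endothelial genes higher in cold HIF2α AKO and up to 8 cell cycle genes lower when 1 of TN WT replicates 2 and 3 or cold WT replicate 3 was left out, and white adipocyte markers had 4 of 10 higher in cold WT (2 without TN WT replicate 1 or 2, cold WT replicate 3 or cold HIF2α AKO replicate 2) and 1 of 10 in cold HIF2α AKO (0 without replicate 1 of that genotype at TN or in cold). Positions came from GENCODE M21 and RefSeq. Older symbols were matched through RefSeq synonyms, and 15176 of 15306 tested genes had a position. The fit was tested on simulated data. The alternatives were other scaling, filters, tools and limits, a replicate block, and each library left out.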

Additional observations from a re-analysis of the deposited data

How the results depend on the processing

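The calls of Ucp1 and Ucp3 upon cold held in both genotypes in all 12 fits that left out 1 library and all 10 other fits, between 12.2 and 13.0 for Ucp1 in WT and between 11 and 12.6 in mice labelled HIF2α AKO without 1 library, and between 2.30 and 3.15 and between 2.46 and 3.17 for Ucp3. Ucp2 was called in none of these fits (lowest adjusted p from edgeR 0.0818, with total counts only), and in cold HIF2α AKO, and by genotype in cold, it stayed below 0 in these fits, between -0.52 and -0.17 and between -0.47 and -0.13 without 1 library. Its sign varied in cold WT and by genotype at TN. In cold WT it was 0.03 with limma voom and between -0.27 and 0.075 without 1 library, and at TN it was between -0.23 and 0.12 by genotype, with 0.0956 when TN WT replicate 2 was left out and 0.12 when TN HIF2α AKO replicate 2 was. The interaction of Ucp3 was between -0.37 and 0.49 without 1 library, with values of -0.0039, -0.25, -0.085 and -0.044 among those below 0, and that of Ucp1 between -1.65 and 0.034, the last without TN HIF2α AKO replicate 3. At the looser limit, Ucp2 passed in cold HIF2α AKO (-0.36) and Ucp1 passed by genotype at TN (2.07) and in cold (0.83). The log2 ratios held in all 12, between 12.2 and 12.9, 8.93 and 9.66, and 2.79 and 3.42. The number of genes called in cold WT was 3259, and 5888 with total counts only, 1752 with edgeR on the compared groups, 8029 at the looser limit and between 1381 and 3722 without 1 library, the lower values being those without TN WT replicate 1 (1810), TN WT replicate 2 (1381) and cold WT replicate 3 (1469). In cold HIF2α AKO it was 4138, and 6365, 8352 and between 1613 and 4853, with 1735 without TN HIF2α AKO replicate 1, 2450 without TN HIF2α AKO replicate 3 and 1613 without cold HIF2α AKO replicate 1. By genotype 1 gene was called at TN and 1 in cold, and 8 and 7 with DESeq2, 2 and 2 with voom, 0 and 0 with edgeR on the compared groups, 11 and 12 with DESeq2 on the compared groups, and 1321 and 1374 at the looser limit. For the interaction it was 0, and 1349 at the looser limit. The labels do not say whether replicate numbers pair the mice. Of 18 same-numbered pairs, 5 had correlated deviations above 0.1 (range -0.45 to 0.40), and 3 of 12 libraries correlated best with one of their own number. With 3 libraries per group, these values show little sign of pairing but cannot exclude it. With a replicate block Ucp1 was at 12.7 and 11.6 and Ucp3 at 2.72 and 2.82 in cold, all called, and Ucp2 and all genotype comparisons of the members stayed uncalled. The cause of these shifts was not tested.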
